A study of Mus musculus with 9 samples.

Results

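The colony-stimulating factor (CSF) ligand and receptor genes were followed in phagocytes of the mouse peritoneal wall. The genes were chosen by symbol, as the rows of the deposited expression table named Csf1, Csf1r, Csf2ra, Csf2rb, Csf2rb2 and Csf3r, which are 6 of the 28764 symbols listed. All 6 were listed in each of the 9 libraries.

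The phagocytes came from a first-generation cross of 2 reporter strains. Every mouse was Cx3cr1gfp/+ Ccr2rfp/+, so all 3 populations carried 1 copy of Cx3cr1 replaced by a green reporter and 1 copy of Ccr2 replaced by a red one. Mice had received 50 µg of dextran by vein a day earlier and were perfused before the wall was digested, and cells were taken from the CD11b+ Ly6G- gate. Ages are not given in the labels.

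Double-negative cells carried neither reporter, had taken up dextran and lacked MHC class II. They held 85 to 90% of that gate, and the labels call them the majority of sessile resident macrophages. CCR2-RFP cells, written RFP+ below, bore MHC class II, held 10 to 15% and stand in the labels as migratory tissue monocytes. CX3CR1-GFP cells, written GFP+ below, bore MHC class II, held 0.5 to 1.5% and are a further sessile resident macrophage population in the labels. Each population gave 3 libraries, from sorts labelled 1, 2A and 2B, and the labels do not state outright that 1 sort label is 1 animal. If they are not separate animals, the p-values below measure only the spread between these sorted samples.

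CSF-1, or macrophage colony-stimulating factor, acts through the receptor tyrosine kinase encoded by Csf1r, which also binds IL-34, and tissue macrophages are known to depend on it for survival. GM-CSF acts through a specific alpha chain, Csf2ra, paired with a signalling beta chain, Csf2rb, which is shared with the IL-3 and IL-5 receptors. The mouse has an additional beta chain, Csf2rb2, that serves IL-3 only. G-CSF acts through Csf3r, best known from neutrophils. The CSF-1 receptor signals as a kinase itself, while the GM-CSF and G-CSF receptors signal through JAK kinases and STAT factors.

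The beta chain genes are shown first because the reading of both rests on how well short reads tell them apart. Csf2rb (ENSMUSG00000071713.6) lies at chr15:78325752-78353847 on the plus strand and Csf2rb2 (ENSMUSG00000071714.7) at chr15:78282507-78305721 on the minus strand, 20030 bases apart (GRCm38, GENCODE M21). Their coding sequences are 2688 and 2634 bases long, and of 2628 aligned bases 2503 (95.2%) are identical. Of the 2258 ungapped aligned windows of 75 bases, the read length used, 413 (18.3%) hold no difference and the median window holds 2. The least alike window, with 14 differences, is given below with the differing bases in capitals, from coding base 316 of Csf2rb and 319 of Csf2rb2.
Csf2rb: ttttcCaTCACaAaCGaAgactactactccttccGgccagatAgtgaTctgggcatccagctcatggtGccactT
Csf2rb2: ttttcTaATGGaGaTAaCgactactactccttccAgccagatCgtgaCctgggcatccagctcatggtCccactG
Over whole transcripts, 26.2% of the distinct 31-base words of Csf2rb also occur in Csf2rb2, and 29.0% of those of Csf2rb2 occur in Csf2rb. For 75-base words these shares are 9.97% and 10.9%. A part of the reads could therefore have been divided between these genes by the quantification, and levels of each alone are uncertain. The shares are for single stretches while the reads were paired, so they do not give the size of that uncertainty.

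Promoters are shown for the receptor genes that lay highest and lowest in RFP+ cells relative to the other populations among those with an entry. Of the 6 genes, 4 (Csf1, Csf2ra, Csf2rb2 and Csf3r) had an entry in the RefSeq promoter table (GRCm38.p6). Each sequence is the 250 bases before the RefSeq start. Capitals mark GAGGAA or its reverse complement, the core bound by PU.1, a factor that myeloid cells need. The first is chr19:61228419-61228668 (minus strand) and the second is chr4:126024409-126024658 (plus strand). The GENCODE gene starts, chr19:61228429 for Csf2ra and chr4:126024550 for Csf3r, lie inside these stretches. By that annotation the last bases of each stretch are therefore within the gene.
Csf2ra: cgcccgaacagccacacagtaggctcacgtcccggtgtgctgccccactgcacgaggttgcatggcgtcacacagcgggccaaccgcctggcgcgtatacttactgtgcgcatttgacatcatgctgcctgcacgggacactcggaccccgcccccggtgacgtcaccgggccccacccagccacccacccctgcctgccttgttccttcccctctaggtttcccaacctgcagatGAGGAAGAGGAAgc
Csf3r: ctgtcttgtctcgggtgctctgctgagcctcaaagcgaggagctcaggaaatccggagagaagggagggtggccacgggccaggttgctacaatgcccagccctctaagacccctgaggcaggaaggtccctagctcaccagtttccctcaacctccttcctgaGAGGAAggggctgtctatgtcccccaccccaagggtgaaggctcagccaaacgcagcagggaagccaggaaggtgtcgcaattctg
GAGGAA was found 2 times for Csf2ra, in adjacent copies 14 to 9 and 8 to 3 bases before the RefSeq start, counting both strands. It was found 1 time each for Csf3r (86 to 81 bases before) and Csf2rb2. By the GENCODE starts, the Csf3r copy and the nearer Csf2ra copy lie within the gene, and the farther Csf2ra copy spans its start. Csf1 had none. The word is in 23.3% of 32851 promoters of this length, so its presence is common. TTNNGNAA, a C/EBP-like word, was found 1 time in the Csf2ra promoter and is in 36.8% of promoters. TTCNNNGAA, a STAT-like word, was found 1 time in the Csf2rb2 promoter and is in 7.02% of promoters. TGTGGT, a RUNX-like word, was in none of the 4 and is in 14.0% of promoters. None of these words overlapped another in the 4 promoters. A match is a run of letters, not a measured site.

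Levels are in TPM, transcript abundance scaled to transcript length and to a common total, so that genes can be compared within a library. Differences are on the log2(TPM + 1) scale, which understates the change of low genes, and folds are on that scale too. They were tested with limma over the 10136 genes that reached 1 TPM in 3 or more libraries, and a gene was called at a Benjamini-Hochberg adjusted p below 0.05. The depth behind each value is unknown, because TPM holds no counts, and the number of libraries sets the precision. The listed TPM of a library summed to between 278579 and 382828, and Siglece alone took 61107 to 123879 TPM, with its 3 lowest values in the GFP+ libraries. Between RFP+ and double-negative cells 24.8% of the genes tested were called (14.9% higher, 9.88% lower in RFP+ cells). Between GFP+ and RFP+ cells 26.3% were called (8.96% higher, 17.3% lower in GFP+ cells), and between GFP+ and double-negative cells 2.77% (1.16% higher, 1.61% lower in GFP+ cells). These splits depend on scaling. With Siglece, 18S RNA, mitochondrial and ribosomal protein genes taken out and the rest rescaled, 980 higher and 1278 lower replaced 1512 higher and 1001 lower in the first comparison, 1440 and 965 replaced 908 and 1758 in the second, and 154 and 113 replaced 118 and 163 in the third. That rescaling moved the median log2 difference of all genes from 0.09 to -0.09 in the first comparison and from -0.11 to 0.16 in the second. The comparisons share populations, so they are not independent of each other.

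Of the 6 genes, 5 passed the filter on low values. Csf1r and Csf3r were lower and Csf2ra and Csf2rb higher in RFP+ than in double-negative cells, 4 of 5 tested beside 24.8% of all genes. The same directions held against GFP+ cells, 4 of 5 beside 26.3%. Csf2rb2 was not called in either comparison, and 0 of 5 were called between GFP+ and double-negative cells, where 281 genes were called in all and 0 of the 5 had an unadjusted p below 0.05. Csf3r passed the filter through the double-negative and GFP+ libraries alone, so its count among the 4 is a description. In bulk samples fewer cells expressing a gene and less RNA per cell cannot be told apart, which holds for every level here.

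**Figure D1:**
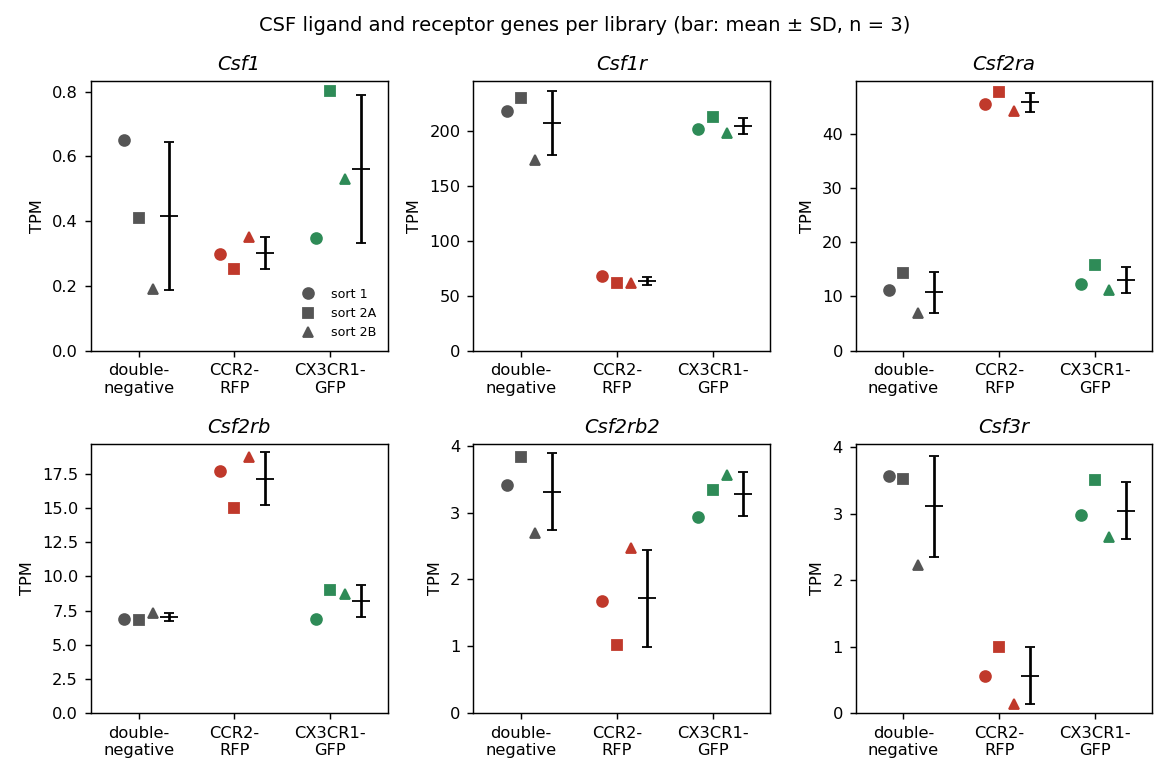
TPM of the 6 genes in each library (vertical axes, linear from 0, a different range per gene) by sorted population, with the sort label as the point shape and the mean ± SD of 3 libraries as the bar. The RFP+ libraries stand apart from the others for every gene but Csf1, below them for Csf1r, Csf2rb2 and Csf3r and above them for Csf2ra and Csf2rb.

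The ligand gene Csf1 was close to the bottom of the range. Csf1 (ENSMUSG00000014599.10, chr3:107741048-107760469, minus strand) was at 0.649, 0.410 and 0.191 TPM in double-negative libraries (sorts 1, 2A and 2B, the order kept below). The level was 0.299, 0.253 and 0.351 TPM in RFP+ and at 0.349, 0.802 and 0.529 TPM in GFP+ libraries. The 3 populations overlapped and no library reached 1 TPM, so Csf1 was not tested in the main analysis. With no filter on low values the log2 differences were -0.11 for RFP+ against double-negative cells (limma, adjusted p 0.856), 0.14 for GFP+ against double-negative cells (adjusted p 0.810) and 0.25 for GFP+ against RFP+ cells (adjusted p 0.501).

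The other CSF family ligands were at or near 0 as well, and none of the 5 reached the filter. Csf2, which encodes GM-CSF, was listed at 0 in 7 libraries, at 0.0864 TPM in GFP+ sort 1 and at 2.07 TPM in GFP+ sort 2A, so a single library carried nearly all of it. Csf3, encoding G-CSF, peaked at 0.623 TPM (RFP+ sort 2B) and was listed at 0 in all 3 GFP+ libraries. Il34, the other ligand of the CSF-1 receptor, peaked at 0.145 TPM, Il3 at 0.243 TPM and Il5 at 0.0334 TPM. Adam17 and Adam10 encode membrane proteases, of which ADAM17 is known to release CSF-1 from the cell surface. Adam17 was 7.57 ± 0.621 TPM in double-negative, 7.28 ± 1.42 in RFP+ and 8.36 ± 1.27 in GFP+ cells (SD, n = 3) and was not called in any comparison. Adam10 was 20.2 ± 2.37, 33.5 ± 9.83 and 20.4 ± 0.744 TPM in that order, and its higher level in RFP+ than in double-negative cells (0.67, limma, adjusted p 0.0411) was called in 5 of 19 alternative settings and lost without any 1 library other than RFP+ sort 1 and GFP+ sort 2A.

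Csf1r was the most abundant of the 6 genes in every library and was 3.21-fold lower in RFP+ than in double-negative cells. Csf1r (ENSMUSG00000024621.16, chr18:61100598-61132149, plus strand) was at 217, 229 and 174 TPM in double-negative libraries, at 67.7, 61.2 and 61.2 TPM in RFP+ libraries and at 202, 212 and 198 TPM in GFP+ libraries. The RFP+ libraries all lay far below the other 6, and the other 2 populations overlapped. The log2 difference was -1.68 (SE 0.136, limma, adjusted p 1.58e-05) for RFP+ against double-negative cells and 1.67 (adjusted p 2.03e-05) for GFP+ against RFP+ cells. Between GFP+ and double-negative cells it was -0.01, with a 95% interval from -0.31 to 0.29 (limma, adjusted p 0.984). By mean level, Csf1r ranked 98th, 451st and 95th of all listed symbols in double-negative, RFP+ and GFP+ cells. Hmgxb3, on the opposite strand, shares 873 exon bases with Csf1r and reached at most 1.46 TPM; the strand used in the quantification is not given in the sources used here.

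Csf2ra, the alpha chain that gives the GM-CSF receptor its specificity, was 4.11-fold higher in RFP+ than in double-negative cells. Csf2ra (ENSMUSG00000059326.7, chr19:61223957-61228429, minus strand) was at 11.1, 14.4 and 6.87 TPM in double-negative, 45.5, 47.6 and 44.2 TPM in RFP+ and 12.3, 15.8 and 11.2 TPM in GFP+ libraries. The lowest RFP+ library was above the highest of the other 6. The log2 difference was 2.04 (SE 0.234, limma, adjusted p 0.000124) against double-negative cells and -1.74 (adjusted p 0.000398) for GFP+ against RFP+ cells. GFP+ and double-negative cells overlapped, with a log2 difference of 0.30 and a 95% interval from -0.22 to 0.82 (limma, adjusted p 0.615).

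Csf2rb, the beta chain that carries the GM-CSF signal, was higher in RFP+ cells as well, by 2.25-fold. It was at 6.90, 6.79 and 7.34 TPM in double-negative, 17.7, 15.0 and 18.7 TPM in RFP+ and 6.89, 9.01 and 8.75 TPM in GFP+ libraries. All RFP+ libraries lay above the other 6. The log2 difference was 1.17 (SE 0.164, limma, adjusted p 0.000443) against double-negative cells and -0.98 (adjusted p 0.00153) for GFP+ against RFP+ cells, and 0.20 with an interval from -0.17 to 0.56 between GFP+ and double-negative cells (adjusted p 0.644).

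Csf2rb2, the IL-3-specific beta chain, lay on the other side. It was at 3.41, 3.83 and 2.70 TPM in double-negative, 1.67, 1.02 and 2.47 TPM in RFP+ and 2.93, 3.34 and 3.57 TPM in GFP+ libraries. The RFP+ libraries did not overlap the others, but the highest of them was close to the lowest double-negative library. The log2 difference of -0.69 against double-negative cells (95% interval -1.21 to -0.17, limma, adjusted p 0.0545) and of 0.68 for GFP+ against RFP+ cells (0.17 to 1.20, adjusted p 0.0536) both missed the threshold. Without the RFP+ library of sort 2B they were -0.88 (adjusted p 0.0281) and 0.88 (adjusted p 0.0291). Over 18 alternatives each was called in 5, with adjusted p from 0.0242 to 0.179 and from 0.0173 to 0.169. GFP+ and double-negative cells differed by -0.01 (-0.52 to 0.51, adjusted p 0.996).

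A shared read counts towards the sum of the beta chains whichever of them it was given to. Its weight in TPM can still vary with the length of the transcript. Csf2rb and Csf2rb2 together came to 10.3 ± 0.290 TPM in double-negative, 18.8 ± 2.64 in RFP+ and 11.5 ± 1.45 in GFP+ cells (SD, n = 3). The sum was higher in RFP+ than in double-negative cells by 0.80 (SE 0.162, limma, adjusted p 0.00449) and lower in GFP+ than in RFP+ cells (-0.67, adjusted p 0.0124). Csf2rb made up 66.9, 63.9 and 73.1% of this sum in double-negative libraries, 91.4, 93.6 and 88.3% in RFP+ libraries and 70.2, 72.9 and 71.0% in GFP+ libraries. RFP+ libraries thus held a larger Csf2rb share than all others, without overlap. This share, unlike the sum, rests on how shared reads were split.

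Partner alpha chains of the beta chains were low. Il3ra, the IL-3 receptor alpha chain, was at 4.49, 1.8 and 4.22 TPM in double-negative, 1.45, 1.24 and 3.80 TPM in RFP+ and 0.510, 3.96 and 1.49 TPM in GFP+ libraries. These overlapped throughout, with limma adjusted p of 0.463 for RFP+ and 0.528 for GFP+ against double-negative cells. Il5ra, the IL-5 receptor alpha chain, did not exceed 0.272 TPM and was not tested. Of the alpha chains that pair with Csf2rb, Csf2ra was thus the most abundant in each of the 3 populations.

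Csf3r, the G-CSF receptor, was low throughout and lowest in RFP+ cells. Csf3r (ENSMUSG00000028859.14, chr4:126024550-126044440, plus strand) was at 3.57, 3.52 and 2.24 TPM in double-negative, 0.560, 0.997 and 0.145 TPM in RFP+ and 2.98, 3.51 and 2.66 TPM in GFP+ libraries. No RFP+ library reached 1 TPM, and none overlapped the other 6. The log2 difference was -1.41 (SE 0.251, limma, adjusted p 0.00213) against double-negative cells and 1.40 (adjusted p 0.00230) for GFP+ against RFP+ cells. At this low level the size moved with the scale: over 18 alternatives, all called, it ran from -2.48 (0.1 TPM added in place of 1) to -0.54 (5 TPM added) and from 0.53 (5 TPM added) to 2.51 (the rescaling named above). GFP+ and double-negative cells differed by -0.01 (95% interval -0.57 to 0.55, adjusted p 0.993).

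Csf3r is best known from neutrophils, which the Ly6G- gate of the sort is meant to leave out, and the neutrophil list was read beside it. Its 9 listed genes summed to 15.6 to 32.6 TPM in double-negative, 4.95 to 5.68 TPM in RFP+ and 5.09 to 38.6 TPM in GFP+ libraries, led by the gelatinase gene Mmp9 (19.1 ± 8.87, 3.97 ± 0.785 and 9.04 ± 7.35 TPM). The RFP+ libraries, lowest for Csf3r, had low sums too, but these sums mostly reflect Mmp9. Cxcr2, Camp, Ltf, Ngp and Mmp8 stayed under 1 TPM in every library. By mean level Mmp9, S100a8, S100a9, Cxcr2 and Mmp8 were lowest in RFP+ cells, and Camp was listed at 0 in RFP+ and double-negative cells. Ltf and Ngp were highest in RFP+ cells, and Retnlg was higher there (0.747 TPM) than in GFP+ cells (0.205 TPM). The part of neutrophil RNA in the Csf3r difference was not tested. Over GFP+ sorts 1, 2A and 2B the defining neutrophil genes S100a8 and S100a9 were at 0.605, 3.44 and 0 TPM and at 2.57, 16.7 and 0 TPM. In the same order Mmp9 was at 5.18, 17.5 and 4.42 TPM, Retnlg at 0, 0 and 0.615 TPM and Csf3r at 2.98, 3.51 and 2.66 TPM.

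**Figure D2:**
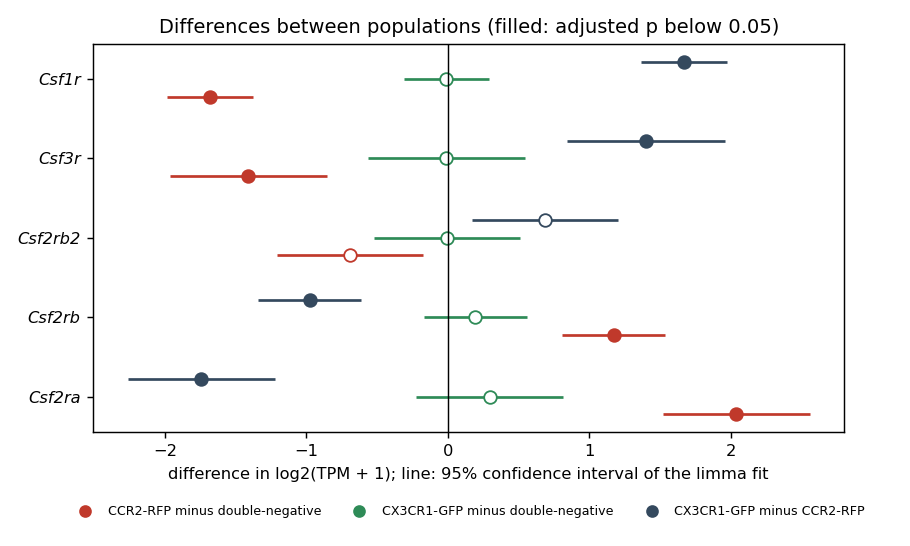
Difference between populations in log2(TPM + 1) (horizontal axis) for the 5 receptor chain genes tested, 1 row per gene and 1 colour per comparison, with the 95% confidence interval of the limma fit as the line and filled points for adjusted p below 0.05. The intervals for GFP+ against double-negative cells all span 0, from -0.57 to 0.82 at their widest, while Csf2ra reaches 2.04 and Csf1r -1.68 for RFP+ against double-negative cells.

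The order of the genes was Csf1r, Csf2ra, Csf2rb, Csf2rb2, Csf3r and Csf1 in all 3 populations. Neighbours whose libraries overlapped were Csf2ra and Csf2rb in double-negative cells, Csf2rb2 and Csf3r in double-negative and in GFP+ cells, and Csf3r and Csf1 in RFP+ cells. Every other pair of neighbours was apart in all libraries. Among double-negative libraries, sort 2B was the lowest for 5 of the 6 genes, Csf2rb being the exception.

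While the order was the same, the makeup of the receptor transcripts differed between populations. Of the summed TPM of the 5 receptor genes, Csf1r made up 89.6 ± 0.571% in double-negative, 49.3 ± 1.41% in RFP+ and 88.1 ± 0.987% in GFP+ cells (SD, n = 3). Csf2ra made up 4.57 ± 1.00%, 35.6 ± 1.97% and 5.62 ± 0.764% and Csf2rb 3.09 ± 0.625%, 13.3 ± 1.44% and 3.54 ± 0.451% in the same order. The summed TPM was 231 ± 34.0, 129 ± 3.97 and 232 ± 10.7. Shares within a library do not depend on how libraries were scaled to each other.

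**Figure D3:**
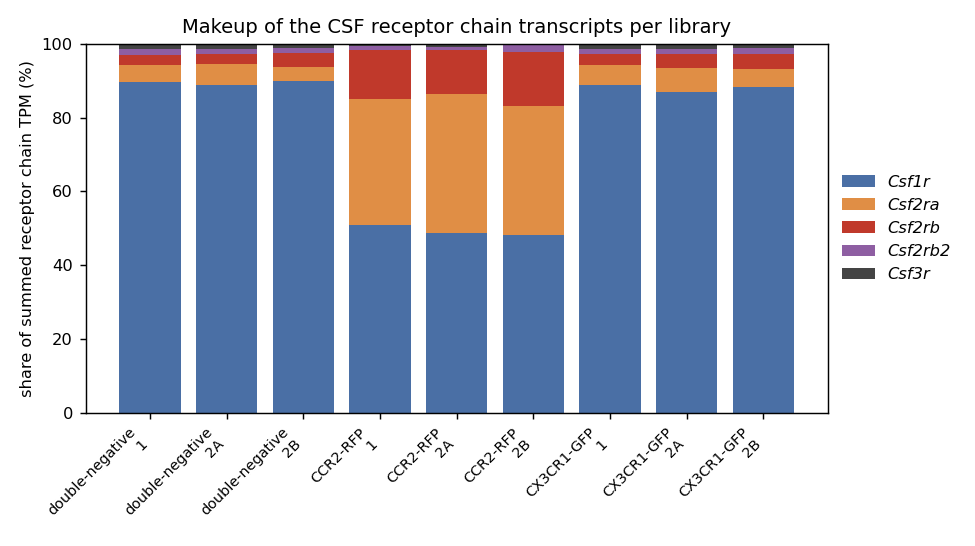
Share of the summed TPM of Csf1r, Csf2ra, Csf2rb, Csf2rb2 and Csf3r (vertical axis, %) in each of the 9 libraries, stacked by gene. Csf1r fills most of each double-negative and GFP+ bar (89.6 and 88.1% on average), and Csf2ra with Csf2rb fills most of what is left beside Csf1r (49.3% on average) in RFP+ bars.

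Ratios within a library restate these levels and are not separate evidence. A difference in log2 ratio between populations is the difference between the log2 differences of its 2 genes. The ratio of Csf1r to Csf2ra TPM was 19.5, 16 and 25.3 in double-negative, 1.49, 1.28 and 1.38 in RFP+ and 16.5, 13.4 and 17.7 in GFP+ libraries, and this ratio was not among those tested. The log2 ratio of Csf1r to Csf2rb, after adding 1 TPM to each, differed by -2.86 between the means of RFP+ and double-negative cells, and the 2 groups did not overlap. Its exact permutation p was 0.1, two-sided, the smallest that 3 against 3 libraries allow, and 0.188 after adjustment over 15 ratio comparisons. The corresponding differences were -0.87 for Csf2rb to Csf2ra, 1.86 for Csf2rb to Csf2rb2 and -1.57 for Csf1r to Csf1, all without overlap and with the same p. Csf1 was under 1 TPM in every library, so with 1 TPM added its ratio mostly follows Csf1r. Csf1r to Csf3r differed by -0.27, with overlap (exact permutation p 0.4), and by 0.79 when 0.1 TPM was added in place of 1, so which of these receptor genes was lower by more is not settled. No ratio separated GFP+ from double-negative libraries (exact permutation p 0.3 to 0.9).

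Sort gate genes and cell type markers were set beside these levels. Ccr2 was at 95.4 to 115 TPM in RFP+ libraries and at 1.65 to 6.68 TPM in the others, and Cx3cr1 was at 4.13 to 16.4 TPM in GFP+ libraries and listed at 0 in the others. The MHC class II genes followed the gate, with H2-Aa at 68.2, 1841 and 673 TPM, H2-Ab1 at 23.0, 634 and 214 TPM, H2-Eb1 at 22.8, 713 and 257 TPM and Cd74 at 168, 3096 and 1194 TPM on average in double-negative, RFP+ and GFP+ cells. Itgam, which encodes CD11b, was at 19.3, 47.0 and 14.7 TPM. Of the 7 macrophage markers, led by Lyz2, the means of all 7 were at least 1 TPM in double-negative and GFP+ cells and of 6 in RFP+ cells, where Fcgr1 was at 0.794 TPM beside 12.2 in double-negative cells. Ly6c2, a defining marker of classical monocytes, was at 1.04, 0 and 0.0778 TPM in the cells labelled as tissue monocytes. The monocyte list holds the gate gene Ccr2. Its other 5 genes, led by F13a1, summed to 338.6 to 382.5 TPM in double-negative, 107 to 147 TPM in RFP+ and 158 to 227 TPM in GFP+ libraries.

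Most dendritic cell markers listed were higher in RFP+ cells, as Csf2ra and Csf2rb were. Dendritic cells are known to express the GM-CSF receptor. The 8 genes of the list, led by Cd209a, summed to 24.9 to 61.0 TPM in double-negative, 101 to 151 TPM in RFP+ and 9.51 to 12.4 TPM in GFP+ libraries. In RFP+ cells 7 of the 8 had a mean of at least 1 TPM, and 2 in each of the others. Of the 7 tested, 6 were higher in RFP+ than in double-negative cells, beside 14.9% of all genes. For 5 of these (Flt3, Dpp4, Xcr1, Itgax and Clec9a) the filter was passed only with the RFP+ libraries, so the count of 6 is a description. Itgax was at 8.75 ± 0.534 against 0.149 ± 0.0419 TPM (SD, n = 3). Zbtb46, the tested gene that was not called, passed the filter without the RFP+ libraries. It was at 2.43, 2.07 and 2.15 TPM on average in double-negative, RFP+ and GFP+ cells (-0.16 for RFP+ against double-negative cells, limma, adjusted p 0.700). Ccr7 did not reach the filter. Between GFP+ and double-negative cells the sums did not overlap either, and Cd209a was lower in GFP+ cells (-2.05, limma, adjusted p 0.0134), while Csf2ra and Csf2rb were not called there. The part of dendritic cells in the higher Csf2ra and Csf2rb and the lower Csf1r of RFP+ cells was not tested.

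Mast cells and eosinophils use Csf2rb too. The 6 mast cell markers, led by Mcpt4, summed to 0.870 to 7.30 TPM in double-negative, 6.82 to 34.2 TPM in RFP+ and 0.0816 to 4.19 TPM in GFP+ libraries. Their highest sum was in RFP+ sort 2A. The 5 eosinophil markers, led by Siglecf, summed to at most 1.51 TPM in any library and Prg2 was listed at 0 in all 9. Fibroblast markers (led by Col3a1) summed, in the same order of populations, to 10.5 to 108, 12.7 to 61.5 and 39.3 to 125 TPM, and skeletal muscle markers (led by Myh4) to 210 to 276, 31.5 to 734 and 157 to 1282 TPM. Endothelial (led by Cdh5), mesothelial (led by Upk3b) and B, T and NK cell markers (led by Cd79b) summed to at most 5.0, 6.23 and 6.00 TPM. The part of these cell types was not tested.

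Genes that act with or below the CSF receptors were read from lists of 67 further genes, 57 of which were tested. The lists were chosen with earlier results of these data known, so the shares called are a description. In RFP+ against double-negative cells 20 were higher and 6 lower (45.6% called, beside 24.8% of all genes), in GFP+ against RFP+ cells 9 were higher and 21 lower (52.6%, beside 26.3%), and in GFP+ against double-negative cells 1 was higher (1.75%, beside 2.77%). Cish and Ccl17, among the 20 higher and the 21 lower, passed the filter through the RFP+ libraries alone. Fyn, among the 20, passed through the RFP+ and GFP+ libraries. Their part in these counts is a description. The first count of 20 was 11 of 54 tested without the RFP+ library of sort 2A, and 11 of 53 without that of sort 2B. With the rescaling named above it was 13 (with 8 lower), and the 9 higher and 21 lower became 11 and 13. The 6 lower became 3 without the double-negative library of sort 2A. The single gene became 0 without any 1 of 8 of the 9 libraries, and 2 without GFP+ sort 2B. At an unadjusted p below 0.05 this last comparison held 7 of the 57 genes (12.3%), beside 1522 of all genes (15.0%).

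Genes known to respond to GM-CSF were the pathway list with the largest share called in RFP+ against double-negative cells (85.7%, beside 24.8% of all genes). The list was chosen with earlier results of these data known, so this rank is a description and no test of GM-CSF signalling. Of the 9 genes on the list, Ccl22 and Csf1 did not reach the filter. Of its 7 genes tested, 6 were higher in RFP+ than in double-negative cells, beside 14.9% of all genes, and 1 was not called. The median log2 difference was 1.16, beside 0.09 for all genes. Bhlhe40, a transcription factor gene that GM-CSF induces in myeloid cells, was at 1.68, 0.687 and 1.05 TPM in double-negative, 19.0, 17.2 and 20.6 TPM in RFP+ and 3.35, 3.69 and 1.88 TPM in GFP+ libraries, with RFP+ libraries far above the rest (3.24, limma, adjusted p 9.70e-06). Il1rn, the IL-1 receptor antagonist, was at 32.0 ± 2.96 TPM in RFP+ against 1.20 ± 0.718 TPM in double-negative cells (3.96, adjusted p 8.41e-05). Irf4, a factor of GM-CSF-driven differentiation, was at 24.8 ± 2.2 against 12.0 ± 1.41 TPM (0.99, adjusted p 0.00482). Cish, a feedback inhibitor induced by STAT5 (1.02, adjusted p 0.00276), and the chemokine gene Ccl17 (1.17, adjusted p 0.00367) passed the filter through the RFP+ libraries alone. Their part in the count of 6 and in the 85.7% is therefore a description. Cish also stands in the list of feedback regulators. Pparg, named because it completes the 6, was 2.65 ± 0.0370 against 0.706 ± 0.627 TPM (1.16, adjusted p 0.0262), a call made in 11 of 18 alternatives and lost without double-negative sort 1 or 2A or any RFP+ library. The survival gene Bcl2l1 was 1.18 ± 0.339 TPM in RFP+ and 2.45 ± 0.333 TPM in double-negative cells (-0.67, adjusted p 0.0550), and it was higher in GFP+ than in RFP+ cells (1.24, adjusted p 0.00271). Between GFP+ and double-negative cells limma called 0 of the 7, beside 2.77% of all genes. At an unadjusted p below 0.05 there were 2 (Bhlhe40 and Bcl2l1), beside 15.0% of all genes.

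Of 8 JAK and STAT genes tested, 1 was higher and 1 lower in RFP+ than in double-negative cells (median 0.36), or 25.0% called beside 24.8% of all genes. In GFP+ against RFP+ cells 2 were lower, again 25.0%, beside 26.3% of all genes. Jak2, the kinase bound to the common beta chain, was at 3.42, 3.69 and 3.93 TPM in double-negative, 8.34, 11.3 and 10.4 TPM in RFP+ and 5.01, 6.19 and 4.0 TPM in GFP+ libraries, and was higher in RFP+ than in double-negative cells by 1.23 (limma, adjusted p 0.00101). Jak3, which serves the common gamma chain of other cytokine receptors, was lower, at 1.33 ± 0.0438 against 2.73 ± 0.332 TPM (-0.68, adjusted p 0.0383), called in 10 of 18 alternatives and lost without any 1 of the 6 libraries compared. Stat3, a main STAT of the G-CSF receptor, was lower in GFP+ (8.55 ± 2.84 TPM) than in RFP+ cells (18.7 ± 0.950 TPM; -1.09, adjusted p 0.00401). Jak1, the most abundant of the list, was 41.9 ± 5.16, 48.0 ± 5.75 and 38.0 ± 6.84 TPM in double-negative, RFP+ and GFP+ cells and was not called.

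Among feedback and negative regulators, 5 of 12 were higher and 0 lower in RFP+ than in double-negative cells (median 0.58), beside 14.9% and 9.88% of all genes. Among the 5 is Cish, described above with the filter it passed. In GFP+ against RFP+ cells 1 was higher and 5 lower, or 50.0% called beside 26.3% of all genes. Pim1, a kinase gene induced by STAT5, was at 63.3 ± 1.76 TPM in RFP+ against 28.1 ± 5.95 TPM in double-negative cells (1.16, limma, adjusted p 0.00369). Dok2, an adaptor that dampens kinase receptors, was at 26.2 ± 2.59 against 9.65 ± 1.77 TPM (1.36, adjusted p 0.000801), and the ubiquitin ligase gene Cblb at 3.44 ± 0.520 against 1.62 ± 0.111 TPM (0.76, adjusted p 0.0134; not called without RFP+ sort 1 or double-negative sort 2A). Ptpn11, a phosphatase of growth factor signalling, was lower in GFP+ than in RFP+ cells (8.16 ± 4.35 against 27.9 ± 1.62 TPM; -1.8, adjusted p 0.00392). Cbl, which marks the CSF-1 receptor for degradation, had the highest mean of the list but spread widely, from 24.7 to 157 TPM within GFP+ cells alone, and was not called.

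Adaptors and kinases of the CSF-1 receptor went both ways. Of 20 tested, 7 were higher and 4 lower in RFP+ than in double-negative cells (median 0.17), or 55.0% called beside 24.8% of all genes. In GFP+ against RFP+ cells 5 were higher and 8 lower, or 65.0% beside 26.3%. Plcg2, a phospholipase downstream of receptor tyrosine kinases, was at 26.6 ± 2.75 TPM in RFP+ against 5.89 ± 1.72 TPM in double-negative cells (2.02, limma, adjusted p 0.000108). The kinase genes Fyn (4.42 ± 1.43 against 0.429 ± 0.200 TPM; 1.90, adjusted p 0.000799) and Fes (20.9 ± 0.404 against 10.8 ± 1.58 TPM; 0.90, adjusted p 0.00251) were higher as well. No double-negative library reached 1 TPM for Fyn, which passed the filter through the RFP+ and GFP+ libraries, so its part in the count of 7 is a description. The docking protein gene Gab1 was lower with Csf1r, at 1.48 ± 0.244 against 5.09 ± 0.848 TPM (-1.29, adjusted p 0.00240). Akt1 was lower in GFP+ (7.66 ± 0.581 TPM) than in RFP+ cells (15.2 ± 1.19 TPM; -0.90, adjusted p 0.00222). Between GFP+ and double-negative cells limma called 0 of the 20, beside 2.77% of all genes. At an unadjusted p below 0.05 there were 2, beside 15.0% of all genes. The 2 most abundant were not called, namely the adaptor gene Tyrobp (115 ± 8.66 against 161 ± 36.2 TPM) and the kinase gene Lyn (31 ± 3.2 against 27.8 ± 2.50 TPM).

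**Figure D4:**
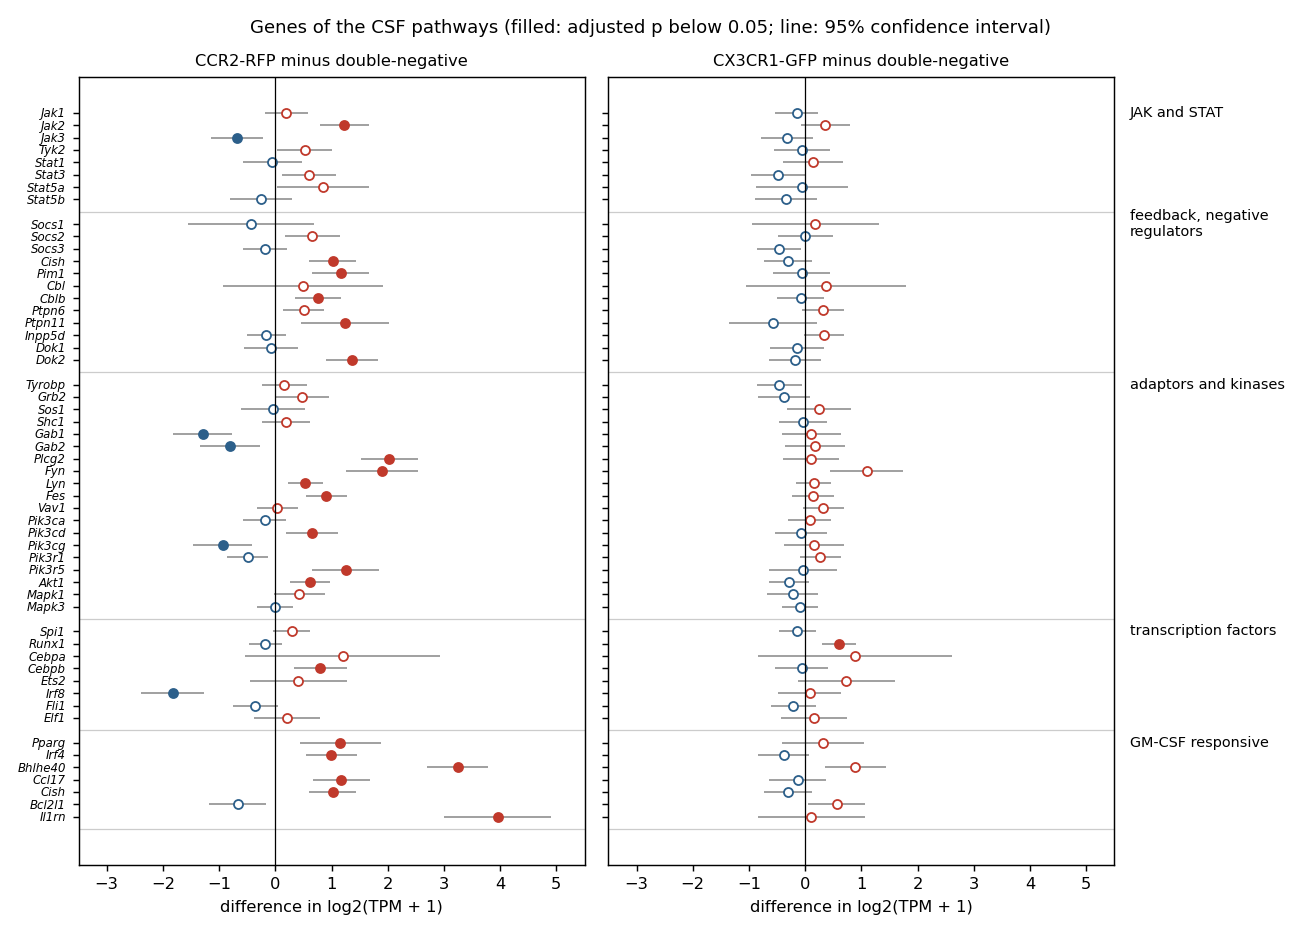
Difference in log2(TPM + 1) (horizontal axes) for tested genes of 5 pathway lists (all but 1, which is not shown), RFP+ minus double-negative cells on the left and GFP+ minus double-negative cells on the right, with 95% confidence intervals of the limma fit and filled points for adjusted p below 0.05. Most filled points lie on the left, with Il1rn at 3.96 and Bhlhe40 at 3.24 farthest to the right and Irf8 at -1.83 farthest to the left, and Runx1 at 0.61 is the single filled point in the right panel.

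Transcription factors known to act on CSF receptor genes included 1 gene that was lower together with Csf1r. Irf8, which directs monocyte and dendritic cell development, was at 9.07, 10.8 and 13 TPM in double-negative, 2.76, 1.29 and 3.34 TPM in RFP+ and 9.89, 12.6 and 12.2 TPM in GFP+ libraries. The RFP+ libraries lay below the others without overlap (-1.83 against double-negative cells, limma, adjusted p 0.000406; 1.91 for GFP+ against RFP+ cells, adjusted p 0.000355). Cebpb was higher in RFP+ than in double-negative cells (78.7 ± 11.3 against 45.3 ± 11.1 TPM; 0.80, adjusted p 0.0197), a call made in 12 of 19 alternatives and lost without double-negative sort 1 or 2B or RFP+ sort 2A or 2B. Runx1 was the single gene of all these lists that was higher in GFP+ (27.6 ± 2.25 TPM) than in double-negative cells (17.8 ± 1.00 TPM; 0.61, adjusted p 0.0428), a call made in 6 of 19 alternatives and lost without any 1 of the 9 libraries, with adjusted p from 0.0253 to 0.150. Spi1, which encodes PU.1, was at 28.7 ± 2.89, 35.3 ± 3.59 and 25.9 ± 2.79 TPM in double-negative, RFP+ and GFP+ cells and was not called (adjusted p 0.199, 0.717 and 0.0555). In all, 1 of 8 tested was higher and 1 lower in RFP+ than in double-negative cells (median 0.25), or 25.0% called beside 24.8% of all genes. In GFP+ against RFP+ cells 2 were higher and 1 lower, or 37.5% called beside 26.3% of all genes. Runx1 was among these 2 (0.79, limma, adjusted p 0.00179), a call made in 19 of 19 alternatives.

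The genes whose levels followed each receptor chain most closely over the 9 libraries were found among 2986 genes with a mean of at least 10 TPM in 1 population. Pearson's r of log2(TPM + 1) is given as a description, since libraries fall into populations and share the difference between them. For Csf1r these were the clathrin heavy chain gene Cltc (r = 0.995; means 362, 154 and 367 TPM in double-negative, RFP+ and GFP+ cells), the endocytic adaptor gene Dab2 (0.995; 203, 45.1 and 181 TPM) and the amino acid transporter gene Slc7a8 (0.994). For Csf2ra they were the transketolase gene Tkt (0.988), Ank (0.982) and Svil (0.977). For Csf2rb they included Chn2 (0.992) and Napsa (0.992), each of which had a mean of 13.1 to 16.6 TPM in RFP+ cells and at most 1.68 TPM in the others. For Csf2rb2 the closest was Pik3cg (0.960), a PI3-kinase gene of the lists above, with Sav1 (0.939) also near, and for Csf3r they were Nisch (0.977), Trim47 (0.977) and P3h2 (0.972).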

How the data were processed

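RNA was measured in 9 libraries, 3 per population, made from 1 ng of RNA with paired reads of 75 bases. The authors deposited TPM per gene symbol, per the labels and file headers. The submitters' processing notes name cutadapt 1.8.3, Salmon 0.11.3, bcl2fastq 2.18 and mm10. For the annotation, strand setting and step from transcripts to genes, the sources used here give nothing. No other columns of per-sample values were present. Libraries were grouped by title, which the source name, cell type and column headings match; the description field names the other reporter for the 6 reporter-positive samples and was not used.

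Values were analysed as log2(TPM + 1) with limma 3.58.1 in R 4.3.3 (lmFit with a mean per population over all 9 libraries, eBayes with trend), keeping genes that reached 1 TPM in 3 or more libraries. The 3 pairwise contrasts were two-sided, with Benjamini-Hochberg adjustment over 10136 genes. The fit was tested on simulated data. Ratios within a library used exact permutation tests. Coordinates come from GENCODE M21 (GRCm38, the same assembly as mm10, 1-based), promoters from RefSeq, and the beta chain alignment from mafft 7.526. The members, gene lists, tests and naming rule were chosen with earlier results of these data known. Named were all members, the other ligands and partner chains, gate genes, per comparison up to 4 called genes of each other list with the smallest p (or up to 2 of the highest mean), the highest gene of each marker list, and the 3 genes most alike to each member. Alternatives were other pseudocounts (0.1 and 5), no filter or one at 5 TPM, the sort label as a block, quantile normalization, median-of-ratios scaling, rescaling after removal of Siglece, Rn18s, mitochondrial and ribosomal protein genes, a fit without intensity trend, the 2 compared populations alone, and each library left out. The markers Ly6g and Trbc2 were not analysed here. Of the genes this rule chose, 3 are left out of the text.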

Additional observations from a re-analysis of the deposited data

How the results depend on the processing

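Csf1r, Csf2ra, Csf2rb and Csf3r kept their direction and their call in RFP+ against double-negative and in GFP+ against RFP+ cells under every alternative that tested them. The size for Csf3r ranged from -2.48 to -0.54 and from 0.53 to 2.51 over 18 alternatives each. Csf2rb2 in RFP+ against double-negative cells crossed the threshold with median-of-ratios scaling (-0.76), rescaling without Siglece, Rn18s, mitochondrial and ribosomal protein genes (-1.12), quantile normalization (-0.73) and no intensity trend (-0.69), and was -0.31 with a pseudocount of 5; it ranged from -0.88 to -0.49 with 1 library left out. In GFP+ against RFP+ cells the same settings gave 0.79, 1.21, 0.73, 0.68 and 0.31, and a range from 0.49 to 0.88. The cause was not tested.

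Between GFP+ and double-negative cells differences near 0 changed sign without being called. With median-of-ratios scaling and with rescaling, in that order, they became 0.0349 and 0.0902 for Csf1r, 0.0297 and 0.0902 for Csf2rb2, and 0.0253 and 0.0876 for Csf3r, and with quantile normalization 0.0780 for Csf1r and 0.0013 for Csf2rb2. With 1 library left out they ranged from -0.13 to 0.0695 for Csf1r, from -0.11 to 0.0804 for Csf2rb2 and from -0.17 to 0.0769 for Csf3r. The 281 genes called in that comparison became 146 with no filter, and 126 to 259 with 1 library left out, with 129 without double-negative sort 1, 126 without 2A, 138 without 2B and 165 without GFP+ sort 2A.

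The log2 ratio of Csf1r to Csf3r with a pseudocount of 0.1 differed by 0.79 in RFP+ against double-negative and by -0.79 in GFP+ against RFP+ cells, opposite to the values with 1 TPM added. Between GFP+ and double-negative cells it ranged from -0.0500 to 0.0508, and Csf2rb to Csf2ra from -0.34 to 0.19, with 1 library left out. Of 282 alternative values for the receptor genes 254 kept direction and side of the threshold.

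With the sort label as a replicate block, 2428, 256 and 2666 genes were called in RFP+ against double-negative, GFP+ against double-negative and GFP+ against RFP+ cells, beside 2513, 281 and 2666, and no call of the receptor genes changed. Deviations of libraries with the same label correlated at 0.0315 to 0.205 (9 pairs), which does not settle whether the labels pair the samples. Depth could not be assessed from TPM, and levels under 1 TPM (Csf1, Csf3r in RFP+ cells) are the least certain.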

Other observations

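Stat5a, the STAT gene most closely tied to GM-CSF signalling, was not named by the rule on called genes and was singled out after its values were seen. In RFP+ cells it was at 2.71, 8.19 and 2.40 TPM (sorts 1, 2A and 2B), at 1.27 to 2.49 TPM in double-negative libraries and at 1.07 to 1.92 TPM in GFP+ libraries. The RFP+ library of sort 2A also held the highest summed mast cell markers of the 9 (34.2 TPM), with Mcpt4 at 15.8 TPM and Cpa3 at 8.92 TPM. Its summed skeletal muscle markers were the highest of its population too (734 TPM), with Myh4 at 318 TPM against 15.7 and 12.8 TPM in RFP+ sorts 1 and 2B. The GFP+ library of sort 2A, which held nearly all Csf2, also held the highest S100a9 of the 9 libraries (16.7 TPM) and the highest Il3ra of its population (3.96 TPM). Its summed skeletal muscle markers were the highest of the 9 libraries (1282 TPM). Whether any of these values are linked was not tested.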
